A study of Homo sapiens with 4 samples.

Results

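The 9 genes PAX2, PAX3, PAX8, WT1, OXTR, STC1, STC2, GREB1 and MUC16 were followed across 4 human leiomyosarcoma lines. They are transcription factor genes, most of them of kidney or Mullerian duct development, and genes known from the uterus and its hormones. They were taken by symbol from a table of 23577 usable genes, and all 9 were present in it. The lines RKN, SKLMS1, SKN and SKUT1 derive from leiomyosarcoma, a cancer with smooth muscle features. All 4 were cultured untreated in DMEM, a standard growth medium, containing 10% FBS (fetal bovine serum). Each line gave 1 poly(A) RNA library read as single 75 bp reads, so each line was a group of its own. The labels state neither the organ that each line came from nor whether a line is a single clone. With 1 library per line, no difference below has a replicate check, and no test or p-value was computed.

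Levels are in FPKM, a read number corrected for transcript length and library size, which allows comparison between genes. Differences between lines are given on the scale log2(FPKM + 1), which understates the difference of low genes, and 2 on that scale is called 4-fold. Depth estimated from the lowest values was 24400000 to 33600000 reads per library, at which a single read (1) on a 2 kb transcript equals 0.0165 to 0.0228 FPKM. RPS18, which encodes a core ribosomal protein, was listed at 0 in all 4 libraries. A gene at exactly 0 is therefore called listed at 0 here. No FPKM ratio is formed with it, and a 4-fold call against it on the log2 scale is named as such. Of 10 smooth muscle markers, SKUT1 had 9 at an FPKM of 1 or more (summed level 6319), SKLMS1 had 7 (846.7), RKN 6 (205.2) and SKN 4 (98.4). Among them DES, the desmin gene, was at most 1.10, and MYH11, the smooth muscle myosin heavy chain gene, at most 1.15. Of 6 endothelial markers at most 1, and of 6 leukocyte markers at most 2, reached an FPKM of 1 in a line.

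PAX proteins are paired-box transcription factors that set up organs in the embryo. PAX2 and PAX8 act together in the kidney and in the Mullerian duct, the origin of uterus and oviduct, and PAX8 also acts in the thyroid. PAX3 acts in neural crest and muscle progenitors. WT1 is a zinc finger factor of kidney, gonad and mesothelium that is also seen in normal myometrium. OXTR is the oxytocin receptor, which drives contraction of uterine muscle through Gq proteins. STC1 and STC2 are secreted stanniocalcins that block the pappalysin proteases, the enzymes that free insulin-like growth factors from binding proteins. GREB1 is a classic oestrogen receptor target, and MUC16 is the membrane mucin that is shed by ovarian cancers as a serum marker.

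Of the genes that reached an FPKM of 1, the highest level of PAX3 was in RKN, that of WT1 in RKN and SKN alike, that of PAX8 and STC1 in SKN, and that of OXTR and STC2 in SKUT1. In every line 4 of the 9 genes reached an FPKM of 1, that is PAX3, PAX8, WT1 and STC2 in RKN, PAX8, OXTR, STC1 and STC2 in SKLMS1, PAX8, WT1, STC1 and STC2 in SKN, and, as in SKLMS1, PAX8, OXTR, STC1 and STC2 in SKUT1. Of all genes, 48.6 to 49.8% did so. PAX8 and STC2 were the members that reached it in all 4 lines. PAX2, GREB1 and MUC16 reached it in none and were left out of the comparisons of pairs, which therefore rest on 6 genes. Together the 9 genes held a summed FPKM of 610.9 in SKUT1, 276.3 in SKN, 160.8 in SKLMS1 and 12.8 in RKN.

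**Figure D1:**
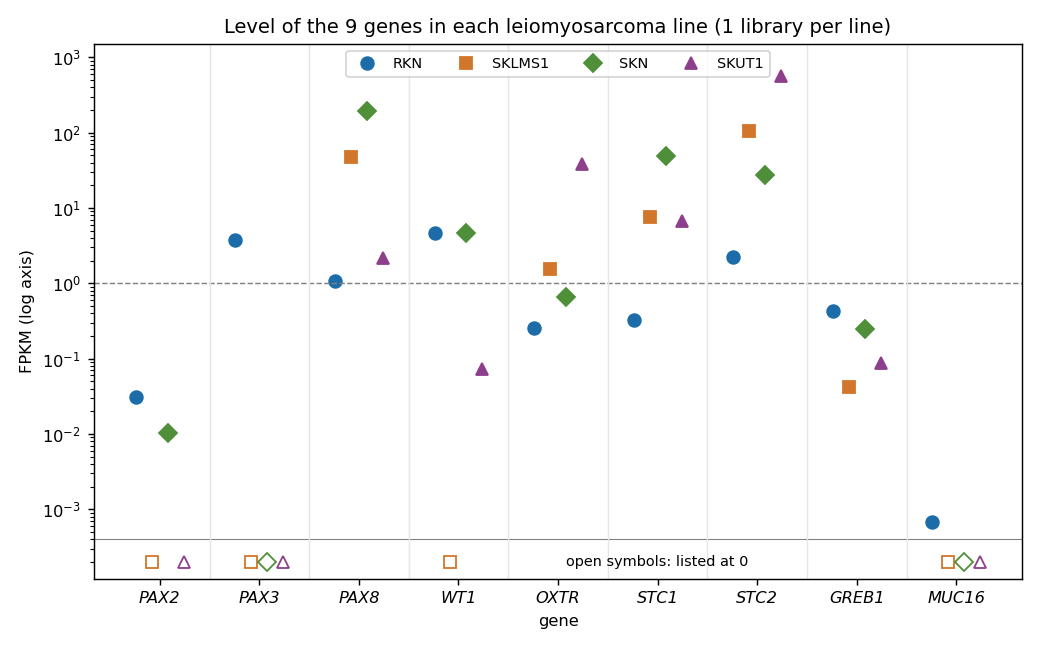
FPKM (log axis) of the 9 genes in the 4 lines, 1 point per library, with open symbols in the bottom strip for values listed at 0 and a dashed line at an FPKM of 1. STC2 reached 563.5 in SKUT1 and PAX8 194.9 in SKN, while PAX2, GREB1 and MUC16 stayed below 1 in all 4 lines.

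Between pairs of lines, 2 to 5 of the 6 genes were at least 4-fold apart. Over the 13713 genes with an FPKM of 1 in at least 1 line, the share at least 4-fold apart is given with each pair. RKN and SKLMS1 differed in PAX3, PAX8, WT1, STC1 and STC2 (5 of 6, all genes 9.79%). RKN and SKN differed in PAX3, PAX8, STC1 and STC2 (4 of 6, all genes 9.65%). RKN and SKUT1 differed in PAX3, WT1, OXTR, STC1 and STC2 (5 of 6, all genes 15.2%). These 3 pairs share the RKN library. SKN and SKUT1 differed in PAX8, WT1, OXTR, STC1 and STC2 (5 of 6, all genes 12.1%), and SKLMS1 and SKUT1 in PAX8, OXTR and STC2 (3 of 6, all genes 12.1%). SKLMS1 and SKN differed in WT1 and STC1 only (2 of 6, all genes 7.9%). The 6 genes were chosen with earlier results of these data known and passed the FPKM minimum through the lines where they are high, so these shares describe the genes and support nothing further. PAX3 in its 3 pairs, and WT1 in the pairs with SKLMS1, were set against a value listed at 0.

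**Figure D2:**
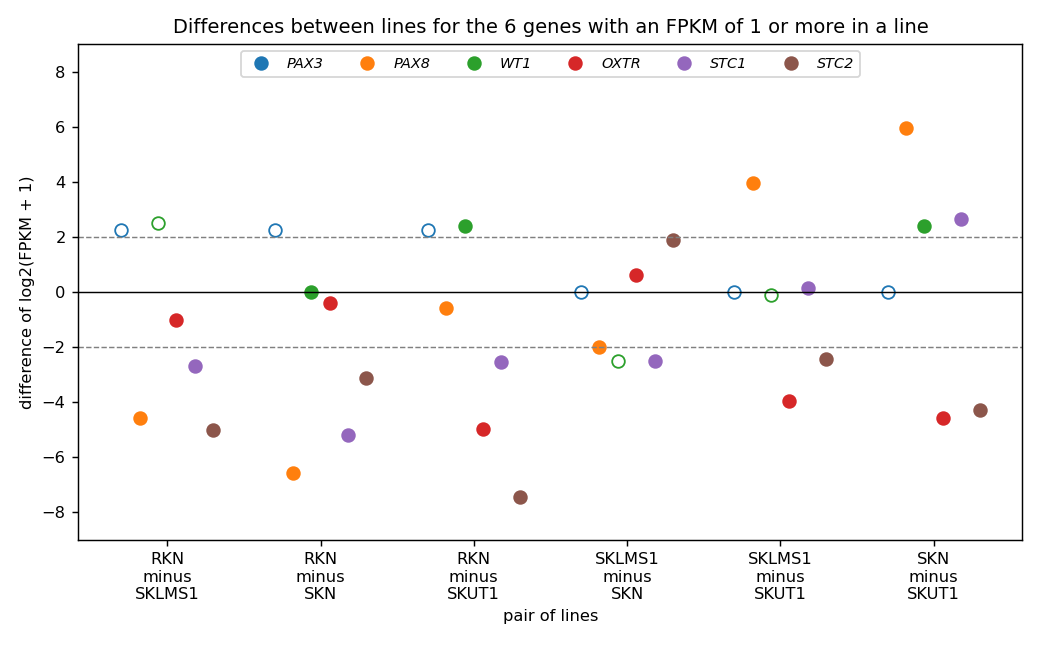
Differences of log2(FPKM + 1) between lines, 1 column per pair (first line minus second), with dashed lines at 2 and -2, the 4-fold rule, and open symbols where a line is listed at 0. RKN lies below the other lines for STC1 and STC2 in all its pairs and above them for PAX3.

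PAX8 was the member with the highest level in SKN and had the widest range of the 4 transcription factor genes. Its FPKM was 194.9 in SKN, 48.1 in SKLMS1, 2.14 in SKUT1 and 1.08 in RKN. SKN and SKLMS1 were thus the high lines, and SKUT1 and RKN the low ones. Among all 23577 genes these levels lay at percentiles 98.4, 92.4, 55.7 and 51.8 of their line. The widest step in this order, 3.97 on the log2 scale, lay between SKLMS1 and SKUT1, and the full range was 6.56. SKN exceeded SKLMS1 by 2.00 when rounded, and the unrounded 1.9955 just missed the 4-fold rule. It passed the rule with a pseudocount of 0.1 (2.02) and after quantile normalization (2.03). It stayed below with a pseudocount of 5 (1.91), after TPM rescaling (1.88) and with median-of-ratios scaling (1.99).

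The 250 bases upstream of the annotated start are shown for PAX8, the widest-ranging factor, and for OXTR and STC2, which were both highest in SKUT1. The sequences are from RefSeq on build GRCh38.p14, not the hg19 of the expression table, and run 5′ to 3′ in the direction of transcription, which is the minus strand for all 3. They are chr2:113278922-113279171 for PAX8, chr3:8769614-8769863 for OXTR (the first of 3 starts in the table) and chr5:173328415-173328664 for STC2. Capitals mark the matches to the motifs searched.
PAX8: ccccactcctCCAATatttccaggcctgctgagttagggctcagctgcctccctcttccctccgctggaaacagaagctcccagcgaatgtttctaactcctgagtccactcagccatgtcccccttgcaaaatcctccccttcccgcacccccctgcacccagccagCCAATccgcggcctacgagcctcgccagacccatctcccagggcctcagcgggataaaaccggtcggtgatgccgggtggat
OXTR: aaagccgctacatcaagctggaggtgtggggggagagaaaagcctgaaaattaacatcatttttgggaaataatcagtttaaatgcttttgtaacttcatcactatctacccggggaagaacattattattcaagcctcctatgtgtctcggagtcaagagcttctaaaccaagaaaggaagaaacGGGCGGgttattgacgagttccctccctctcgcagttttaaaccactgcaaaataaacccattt
STC2: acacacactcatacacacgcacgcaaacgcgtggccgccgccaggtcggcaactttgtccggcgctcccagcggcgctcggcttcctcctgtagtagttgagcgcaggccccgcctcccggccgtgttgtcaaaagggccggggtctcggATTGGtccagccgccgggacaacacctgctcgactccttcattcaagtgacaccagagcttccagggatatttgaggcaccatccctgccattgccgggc
Both strands were searched for CCAAT (a box of many promoters), GGGCGG (an SP1 box), TATAAA (bound by the protein TBP), ACGTG (the core of the hypoxia element), GGTCA (an oestrogen receptor element arm), the full palindromic oestrogen response element (which contains that arm), TGANTCA (the AP-1 element), GCGTGGG (a WT1 and EGR core) and the CArG box of serum response factor. PAX8 held CCAAT 2 times, its first bases 240 and 82 bases before the start, and STC2 held it 1 time on the other strand, printed as ATTGG, within 100 bases of the start. CCAAT occurs in 32.0% of all 35116 windows of this length. OXTR held GGGCGG, which 42.6% of windows contain, beginning 64 bases before the start. OXTR and STC2 shared no match, and the other 7 motifs have no match in the 3 windows. A match describes letters in a window and is not a measured binding site. The table gave a window for 7 of the 9 genes, not for STC1 and GREB1.

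PAX8 made up 97.4% of the summed FPKM of the 9 PAX genes in SKN, 91.4% in SKLMS1 and 92.7% in SKUT1, but 13.8% in RKN. In RKN the family sum was only 7.82, with PAX3 at 3.72 and PAX6, the eye and forebrain factor, at 2.79. PAX6 was 3.88 in SKN, 0.551 in SKLMS1 and 0.141 in SKUT1. PAX9, a factor of tooth, thymus and skeleton, was, like PAX8, higher in SKLMS1 (3.95) and SKN (1.26) than in RKN (0.0715) and SKUT1 (0.0281), but SKLMS1 came first. PAX4 and PAX7 were listed at 0 in all 4 lines. PAX1 was 0.121 in RKN and listed at 0 in the others, and PAX5, the B cell factor nearest to PAX2 and PAX8, was at most 0.00942.

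**Figure D3:**
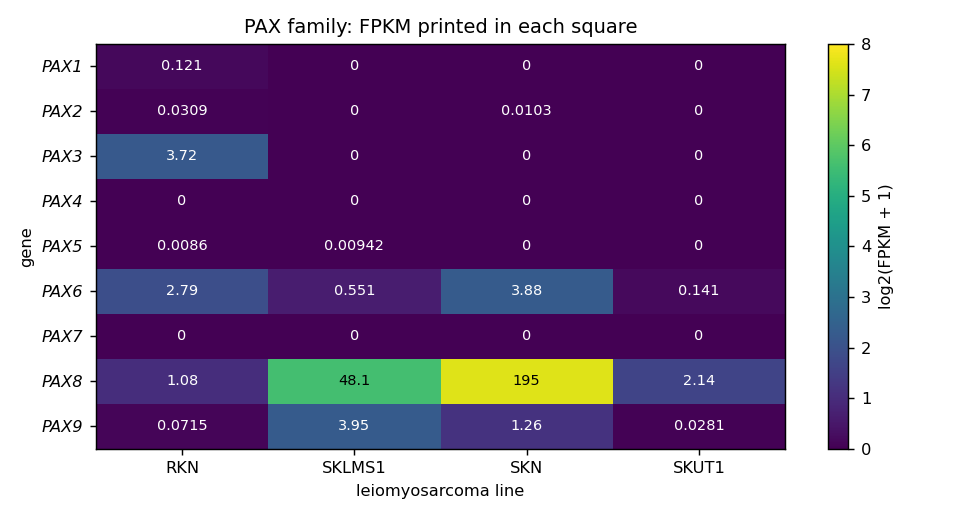
The 9 PAX genes (rows) in the 4 lines (columns), with the FPKM printed in each square and the colour giving log2(FPKM + 1). PAX8 in SKN (194.9) and SKLMS1 (48.1) stands out, and RKN is the line with a value for PAX3 (3.72).

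PAX2, the partner of PAX8 in kidney and Mullerian duct, had values at or near 0 in all 4 lines. Its FPKM was 0.0309 in RKN and 0.0103 in SKN, and it was listed at 0 in SKLMS1 and SKUT1. On the longest transcript of GENCODE release 29 these values correspond to about 4 reads and 1 read. Of the high PAX8 lines, SKN thus had about 1 estimated read of PAX2, and SKLMS1 was listed at 0.

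PAX3 was found in a single line. It was 3.72 in RKN, about 371 estimated reads, and was listed at 0 in SKLMS1, SKN and SKUT1. CCDC140, which overlaps PAX3 in the RefSeq order, had the same distribution at a lower level, 0.377 in RKN and listed at 0 elsewhere. The genes on either side did not: EPHA4 was highest in SKLMS1 (10.0, against 1.57 in RKN), and SGPP2 was listed at 0 in RKN. Of the muscle determination genes downstream of PAX3, MYOD1 was 0.518 in RKN and listed at 0 in the others, MYF5 was listed at 0 in all 4, and MYOG was at most 0.0244. FGFR4, a receptor of muscle progenitors, was highest in RKN at 21.1, with 9.87 in SKLMS1, 0.754 in SKN and 0.0718 in SKUT1. The receptor gene MET was 40.3, 42.2, 24.1 and 9.72 in the same order of lines. Both genes were thus lowest in SKUT1. MEOX2, a homeobox gene of somites, was 38.1 in SKUT1 but listed at 0 in RKN, SKLMS1 and SKN.

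PAX8-AS1 overlaps PAX8 and is listed in the table as LOC654433. It did not follow the order of PAX8. It was 24.6 in SKUT1, 12.9 in SKN, 3.61 in RKN and 1.43 in SKLMS1, so the ratio of PAX8-AS1 to PAX8 was 11.5 in SKUT1, 3.35 in RKN, 0.0660 in SKN and 0.0296 in SKLMS1. The library kit keeps the strand, but whether the quantification used it is not given in the sources used here, so reads of the overlapping pair may not be fully separated. PSD4, the next gene on one side, was 6.51 in RKN, 5.50 in SKN, 0.584 in SKLMS1 and 0.422 in SKUT1. CBWD2, the next on the other, lay between 5.09 and 6.60 in all lines.

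Few of the known partners of PAX factors stood apart in a line. PAX proteins work in a network with homeobox factors and with EYA and DACH cofactors, and of 12 such genes 9 reached an FPKM of 1 in a line. For lists, each line was compared with the mean of the other 3. In this list DACH1 in RKN (10.2, at most 0.0439 elsewhere) was the only member at least 4-fold higher in any line, and none was 4-fold lower. Over all 13713 genes, 2.88% were that much higher and 5.79% lower in RKN, 3.43% and 2.41% in SKLMS1, 3.22% and 3.08% in SKN, and 7.18% and 2.9% in SKUT1. The homeobox gene SIX2 lay between 1.32 in RKN and 6.06 in SKN, and SIX4 between 2.09 in SKLMS1 and 8.40 in SKN.

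Regulators of the nephric and Mullerian ducts split between the lines. Of 24 listed, 17 reached an FPKM of 1 in a line. In SKLMS1 3 of 17 were at least 4-fold above the mean of the other lines (all genes 3.43%), in SKN 3 (all genes 3.22%), in SKUT1 4 (all genes 7.18%) and in RKN none. Lower by that much were 3 in RKN (all genes 5.79%), 2 in SKUT1 (all genes 2.9%) and none in SKLMS1 and SKN. With a pseudocount of 5 the higher counts were 2 in SKUT1, 1 in SKLMS1 and 0 in SKN, and every lower count was 0. Medians over the list were -0.22 in SKN, -0.58 in SKUT1, -0.72 in SKLMS1 and -0.93 in RKN, against -0.05, -0.03, -0.06 and -0.04 over all genes. FOXC1, a forkhead factor, was 20.02 in SKLMS1, 6.47 in SKUT1, 5.18 in SKN and 0.0365 in RKN. OSR1, an early kidney factor, was 19.1 in SKUT1 and at most 1.68 elsewhere, and the integrin gene ITGA8, needed for ureteric bud outgrowth, 16.4 in SKUT1 and at most 0.0637. SOX17 and AMHR2, the receptor gene for Mullerian inhibiting hormone, were listed at 0 in all 4 lines.

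Of 11 renal genes with an FPKM of 1 in a line, 6 were at least 4-fold higher in SKLMS1 (all genes 3.43%), with a median of 2.86 over the list. SKUT1 had 1 higher and 3 lower (all genes 7.18% and 2.9%). RKN (all genes 2.88% and 5.79%) and SKN (all genes 3.22% and 3.08%) each had none higher and 3 lower. The lower calls fell on genes that were high in SKLMS1, which raised the mean of the other lines. PDZK1IP1, for example, was 67.4 in SKLMS1 and listed at 0 elsewhere, and was called lower in RKN, SKN and SKUT1. With a pseudocount of 5 the higher count was 3 in SKLMS1 and 0 in SKUT1, and every lower count was 0. The 6 included HAVCR1, FXYD2 and PDZK1IP1, and the cadherin gene CDH6 (20.7 in SKLMS1, then SKUT1 at 4.60 and SKN at 1.03, with RKN listed at 0). CDH16, a kidney cadherin, was 9.34 in SKLMS1 and at most 0.0299 elsewhere. The defining tubule genes LRP2 and UMOD were listed at 0 in SKLMS1. Of thyroid genes, TSHR and SLC5A5 were at most 0.0331 and 0.185. FOXE1, a thyroid and palate factor, was 21.9 in SKUT1, 4.40 in SKN, 1.25 in RKN and 0.0199 in SKLMS1.

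WT1 was present in RKN and SKN at one level. Its FPKM was 4.67 in both, against 0.0735 in SKUT1 and a value listed at 0 in SKLMS1. The 2 high lines were separated by 0.0003 on the log2 scale, and by 0.24 with RKN above when each column was rescaled to TPM, which gives every library the same sum. Estimated reads were 458 in RKN, 345 in SKN and 5 in SKUT1. WT1-AS, which overlaps WT1, was 0.445 in RKN, 0.461 in SKN, with SKLMS1 and SKUT1 listed at 0, so the high lines were those of WT1, with the limit on strand given above. The flanking genes RCN1 (63.3 to 231.5) and EIF3M (106.4 to 238.9) were well expressed in all 4 lines. WT1 thus joined PAX8 in SKN and PAX3 in RKN.

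Genes of mesothelium and podocytes, the cell types that keep WT1 in the adult, did not share one order with it. Of 18 listed, 10 reached an FPKM of 1 in a line. PDPN, the podoplanin gene, came nearest, at 60.0 in SKN and 4.85 in RKN, 0.0784 in SKUT1 and listed at 0 in SKLMS1. BNC1 was 40.1 in SKN but 0.0403 in RKN. PODXL, a podocyte sialomucin, was 68.9 in SKUT1, 7.74 in RKN, 6.20 in SKN and 0.502 in SKLMS1, and the hyaluronan synthase gene HAS1 was 41.6 in SKUT1 and at most 0.672 elsewhere. MSLN, the mesothelin gene, was at most 0.727, and CALB2, the calretinin gene, at most 0.937. In SKN 3 of the 10 were at least 4-fold higher and 1 lower (all genes 3.22% and 3.08%), and in RKN 1 was higher and 4 lower (all genes 2.88% and 5.79%). SKLMS1 (all genes 3.43% and 2.41%) and SKUT1 (all genes 7.18% and 2.9%) each had 2 higher and 2 lower. With a pseudocount of 5 the higher counts were 2 in SKN, 2 in SKUT1 and 0 in RKN and SKLMS1. The lower counts were then 1 in RKN and 0 in the other lines.

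Of 22 WT1 partners and targets, 16 reached an FPKM of 1 in a line, with 2 at least 4-fold higher and 5 lower in RKN (all genes 2.88% and 5.79%), and 1 higher and 1 lower in SKN (all genes 3.22% and 3.08%). Of the lines with little or no WT1, SKUT1 had 3 higher and 1 lower (all genes 7.18% and 2.9%). The other, SKLMS1, had 1 higher and none lower (all genes 3.43% and 2.41%). With a pseudocount of 5 the higher counts were 1 in SKUT1 and 0 in the other lines. The lower counts were then 3 in RKN and 0 in the other lines. BASP1, a corepressor of WT1, was 293.6 in SKN, 203.9 in SKLMS1, 173.3 in SKUT1 and 27.0 in RKN, so the 2 lines with WT1 were its highest and lowest. PAWR, another WT1-binding corepressor, was 47.7 in SKUT1, 44.2 in SKLMS1, 7.98 in SKN and 2.85 in RKN, lower in both lines with WT1. CITED2 was 275.8 in SKUT1, 60.0 in SKLMS1, 13.6 in SKN and 11.9 in RKN. IGF2, a growth factor gene that WT1 can repress, was 21.1 in SKN, 6.94 in SKLMS1, 1.66 in RKN and 1.21 in SKUT1.

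OXTR was high in SKUT1. Its FPKM was 38.3 in SKUT1, 1.53 in SKLMS1, 0.654 in SKN and 0.257 in RKN. SKUT1 exceeded SKLMS1 by 3.96 on the log2 scale, and 97.9% of the 13713 genes had a smaller gap. A gap of 4-fold or more was seen in 4 of the 6 genes (PAX3, OXTR, STC1 and STC2), against 8.1% of all genes compared. The limit given for the pairs holds here too. The genes were chosen with earlier results known and passed the minimum through their high lines, so these shares support nothing further. The gap of PAX3, 2.24, is set against values listed at 0, so the pseudocount decides it: it was 5.26 with 0.1 and 0.80 with 5, where that of OXTR was 4.56 and 2.73. The 3 lower lines followed in steps of 0.61 and 0.40. Estimated reads were 3893 in SKUT1 and 36 in RKN. OXT, the gene of the ligand, was 0.134 in SKUT1 and listed at 0 elsewhere, and the vasopressin receptor gene AVPR1A was at most 0.00425.

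The Gq subunits that OXTR couples to were expressed in all 4 lines, while genes further down differed. GNAQ and GNA11, the Gq and G11 alpha subunits, were 9.63 to 27.5 and 26.2 to 60.8, highest in SKUT1 for both. PLCB4, a phospholipase C that Gq activates, was 68.7 in SKLMS1, 13.3 in SKUT1, 3.75 in SKN and 0.0455 in RKN. RGS4, which shortens Gq signals, was 337.0 in SKUT1 and 141.3 in RKN, but 0.217 in SKN and 0.137 in SKLMS1. The labour gene PTGS2, which makes prostaglandins, had the same highest line as OXTR, 27.9 in SKUT1 against at most 0.441, whereas GJA1, the gap junction gene that couples myometrial cells, was lowest in SKN at 15.2 and reached 223.6 in RKN, 143.3 in SKLMS1 and 134.9 in SKUT1. Of 21 genes on the oxytocin and labour list, OXTR included, 3 (OXTR, PTGS2 and RGS4) were at least 4-fold higher in SKUT1 and 1 lower (all genes 7.18% and 2.9%), with a median of 0.84. In RKN 1 was higher and 4 lower (all genes 2.88% and 5.79%), with a median of -0.90. SKLMS1 had 2 higher and 2 lower (all genes 3.43% and 2.41%), and SKN 1 higher and 2 lower (all genes 3.22% and 3.08%). With a pseudocount of 5 the higher counts were 3 in SKUT1, 1 in RKN, 1 in SKLMS1 and 0 in SKN. The lower counts were then 2 in SKN, 1 in RKN, 1 in SKLMS1 and 0 in SKUT1. SKUT1 was also the line with the most smooth muscle expression, where 7 of 12 genes were at least 4-fold higher (all genes 7.18%). TAGLN (transgelin) was 3816 there and 5.82 in SKN. In SKLMS1 3 of the 12 were higher and none lower (all genes 3.43% and 2.41%). RKN (all genes 2.88% and 5.79%) and SKN (all genes 3.22% and 3.08%) each had none higher and 4 lower. Whether OXTR depends on smooth muscle expression was not tested.

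The stanniocalcin genes had different leading lines. STC1 was 48.3 in SKN, 7.57 in SKLMS1, 6.77 in SKUT1 and 0.331 in RKN. SKLMS1 and SKUT1 lay 0.14 apart on the log2 scale, while SKN stood 2.52 above them and RKN 2.55 below. STC2 was 563.5 in SKUT1, 103.5 in SKLMS1, 27.6 in SKN and 2.25 in RKN. Its steps were 2.43, 1.87 and 3.13, and its range of 7.44 was the widest of the 9 genes. STC2 reached percentile 99.3 of all genes in SKUT1. The ratio of STC2 to STC1, which no rescaling of a column can change, was 83.2 in SKUT1 and 13.7 in SKLMS1, against 6.81 in RKN and 0.571 in SKN. SKN was the one line with more STC1 than STC2, and RKN was lowest for both.

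The genes of the proteases that stanniocalcins block were highest in SKUT1, as were 3 of 4 listed genes of IGF-binding proteins. PAPPA, the pappalysin gene, was 19.7 in SKUT1, 9.58 in SKN, 0.316 in SKLMS1 and not above 0 in RKN. PAPPA2, its paralog, was 11.4 in SKUT1, and 1.002 in SKN, against 0.362 in SKLMS1, with RKN listed at 0. The 2 lines with PAPPA were those with the highest STC2 and the highest STC1. IGFBP4, the binding protein that PAPPA cleaves, was 1565 in SKUT1, 771.4 in SKLMS1, 155.0 in SKN and 102.4 in RKN, the same order as STC2. IGFBP3 was 3096, 1230, 6.96 and 1.39, again in that order, and IGFBP5 was 231.9 in SKUT1 but only 0.0587 in SKN, with 20.2 in SKLMS1 and 9.30 in RKN. IGFBP2 was instead highest in RKN, at 4.63, with 2.20 in SKUT1, 1.13 in SKN and 1.03 in SKLMS1. Of the 13 genes of this axis, both stanniocalcins included, 7 were at least 4-fold higher in SKUT1 and none lower (all genes 7.18% and 2.9%), with a median of 2.20. In RKN 7 were at least 4-fold lower and none higher (all genes 5.79% and 2.88%), with a median of -2.40. With a pseudocount of 5 the counts fell to 4 higher in SKUT1 and 3 lower in RKN, and after TPM rescaling they were 7 higher and 1 lower in SKUT1 and 8 lower in RKN.

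**Figure D4:**
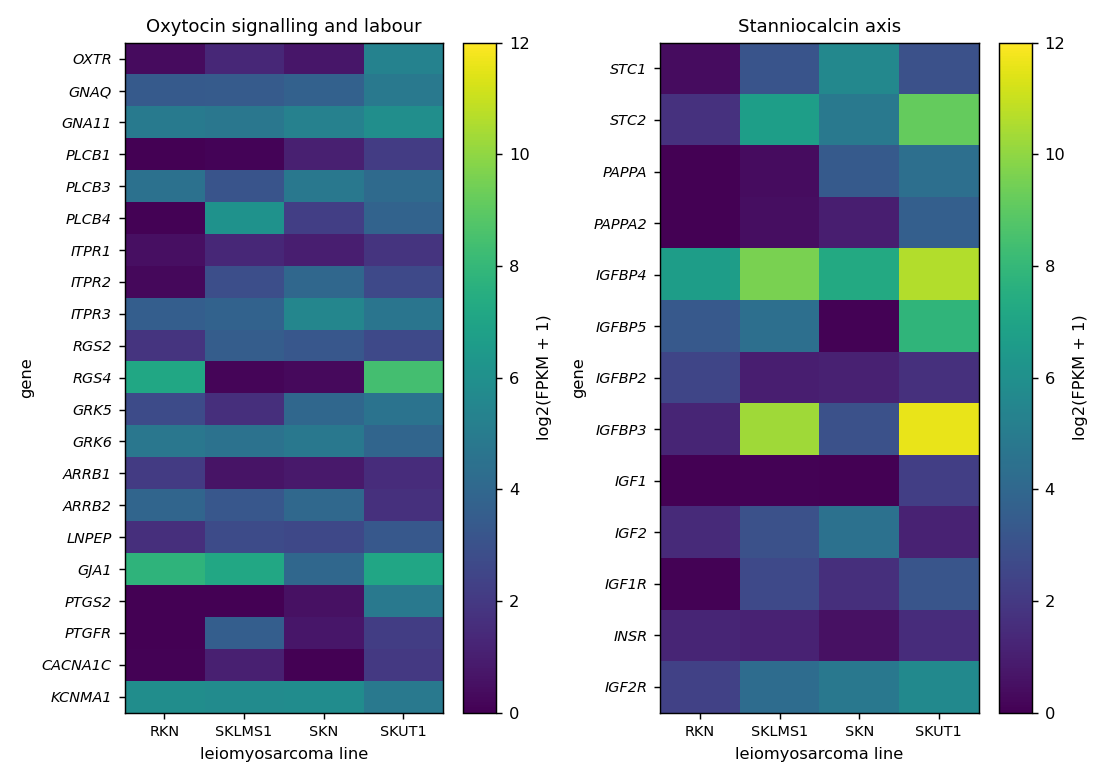
log2(FPKM + 1) (colour) in the 4 lines (columns) for 21 genes of oxytocin signalling and labour (left) and 13 of the stanniocalcin axis (right). STC2, IGFBP3, IGFBP4 and IGFBP5 are brightest in SKUT1, and the stanniocalcin axis is dark in RKN apart from IGFBP4 (102.4).

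Stanniocalcins respond to hypoxia and, in the case of STC2, to ATF4 and stress of the endoplasmic reticulum, so these programmes were read beside them. Of 18 hypoxia targets, both stanniocalcins included, 7 were at least 4-fold lower in RKN and none higher (all genes 5.79% and 2.88%, median -1.23). In SKUT1 6 were higher and none lower (all genes 7.18% and 2.9%, median 0.02). STC1 and STC2 themselves were among the 7 lower in RKN, and STC2 was among the 6 higher in SKUT1. With a pseudocount of 5 the count lower in RKN was 4 and that higher in SKUT1 was 5. SKLMS1 had the highest median, 0.57, with 2 higher and none lower (all genes 3.43% and 2.41%). These 2 were EGLN3 (14.8, against 0.114 in SKUT1) and SLC2A1 (154.5, against 38.7 in SKUT1). SKN had 1 higher and 1 lower (all genes 3.22% and 3.08%). LOX, a collagen crosslinking enzyme, was 952.6 in SKUT1, 10.7 in SKN, 7.28 in SKLMS1 and 0.375 in RKN, and ANKRD37 was 74.4 in SKUT1 and at most 4.50 elsewhere. Of 17 ATF4 and stress targets, STC2 included, 2 were at least 4-fold higher in SKUT1 (all genes 7.18%), STC2 itself and DNAJB9. In RKN 3 were lower (all genes 5.79%), STC2 itself, CEBPB and VLDLR. Medians were 0.96 in SKUT1 and -0.84 in RKN. SKLMS1 had 1 higher and none lower (all genes 3.43% and 2.41%), and SKN 1 and 1 (all genes 3.22% and 3.08%). VLDLR, an ATF4 target, was 42.0 in SKLMS1, 22.1 in SKUT1, 8.66 in SKN and 2.22 in RKN. CEBPB was 144.4 in SKN, 48.8 in SKLMS1, 45.0 in SKUT1 and 9.34 in RKN, the same order as STC1, and DNAJB9, a chaperone gene, was 32.8 in SKUT1 and at most 7.10 elsewhere. Whether these programmes bear on STC1 or STC2 was not tested.

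GREB1 was below an FPKM of 1 in every line. It was 0.429 in RKN, 0.247 in SKN, 0.0887 in SKUT1 and 0.0426 in SKLMS1, about 119, 52, 18 and 11 estimated reads. RKN was thus 10.1 times SKLMS1 in FPKM, and 0.46 apart on the log2 scale with its pseudocount. Its paralog GREB1L had another order, with RKN lowest, at 1.01 in SKUT1, 0.835 in SKN, 0.277 in SKLMS1 and 0.0557 in RKN. The genes ESR1, ESR2 and PGR were low too. ESR1, oestrogen receptor alpha, was at most 0.1002, ESR2, oestrogen receptor beta, at most 0.219, and PGR, the progesterone receptor, at most 0.0493. GPER, the gene of a G protein-coupled oestrogen receptor, was higher, at 5.35 in SKUT1 and 4.90 in RKN. It was 0.106 in SKLMS1 and listed at 0 in SKN.

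Other genes of the oestrogen response list were nevertheless expressed. The list holds genes that oestrogen can induce, and also receptors (such as ESR1 and GPER) and coactivators (such as NCOA1). Of 30 listed, STC2 and GREB1 included, 22 reached an FPKM of 1 in a line, GREB1 not among them. SKUT1 had 4 of these at least 4-fold higher and none lower (all genes 7.18% and 2.9%, median 0.69). SKLMS1 had 4 higher and 1 lower (all genes 3.43% and 2.41%, median 0.17), SKN 2 and 2 (all genes 3.22% and 3.08%), and RKN none higher and 5 lower (all genes 2.88% and 5.79%, median -0.90). CCND1, the cyclin D1 gene, was 537.5 in SKUT1, 111.3 in SKN, 39.8 in RKN and 31.9 in SKLMS1. The chemokine gene CXCL12 was 213.9 in SKUT1, 32.8 in SKLMS1, 0.386 in SKN and listed at 0 in RKN, and PDZK1, a scaffold of epithelial transporters, was 21.9 in SKLMS1 and at most 0.351 elsewhere. TFF1, a classic target, was at most 0.552. Of 14 progesterone and decidua genes compared, STC1 included, 3 were at least 4-fold higher and none lower in SKUT1 (all genes 7.18% and 2.9%), and 2 higher and 3 lower in RKN (all genes 2.88% and 5.79%). SKLMS1 had 2 higher and 1 lower (all genes 3.43% and 2.41%), and SKN 1 and 1 (all genes 3.22% and 3.08%). With a pseudocount of 5, RKN and SKN each had 1 higher and 1 lower, SKUT1 had 1 higher and 0 lower, and SKLMS1 had 0 of either. CRYAB, a small heat shock protein, was 936.3 in SKUT1 and 15.0 in SKLMS1, against 0.0612 in RKN and a value listed at 0 in SKN. FKBP5, which steroid hormones induce, was 19.4 in RKN, 3.54 in SKN, 1.83 in SKUT1 and 0.0272 in SKLMS1. The decidual marker PRL was at most 0.0494.

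MUC16 was listed at 0 in SKLMS1, SKN and SKUT1. In RKN it was 0.000679, which on its very long transcript of 43816 bases corresponds to about 1 read. Of 21 mucin and mucin-related genes in the table, 8 reached an FPKM of 1 in a line. Among the genes named MUC, MUC1 had the highest level, at 10.5 in SKLMS1, 7.12 in RKN, 6.42 in SKUT1 and 0.186 in SKN, and MUC4 was at most 0.0317. CD164, a membrane sialomucin of the same list, was higher in every line, at 77.0 to 124.2. LGALS3, a galectin that binds mucin sugars, was 232.9 in SKUT1, 133.0 in SKLMS1, 63.8 in SKN and 35.4 in RKN. MSLN, whose protein binds the MUC16 protein, was low in all lines as given above.

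On the Mullerian and serous epithelium list, SKLMS1 had the most genes called higher. Of the 22 listed, 8 stayed below an FPKM of 1 in all 4 lines: MUC16, MSLN, WFDC2, OVGP1, SOX17, ESR1, PGR and KLK6. Of 14 genes compared, 5 were at least 4-fold higher in SKLMS1 and none lower (all genes 3.43% and 2.41%, median 0.80). These 5 were CD24, ELF3, FOLR1, KRT8 and KRT19. RKN had 2 higher and 4 lower (all genes 2.88% and 5.79%). SKN (all genes 3.22% and 3.08%) and SKUT1 (all genes 7.18% and 2.9%) each had 2 higher and 2 lower. FOLR1, the folate receptor gene of serous tumours, was 14.3 in SKLMS1 and at most 0.124 elsewhere. KRT8, a simple epithelial keratin, was 267.6 in SKLMS1, 265.0 in SKN, 9.42 in SKUT1 and 1.99 in RKN, high in both lines with high PAX8. KRT18, another keratin of the list, was not: it was 283.4 in SKN, 184.4 in SKUT1, 42.8 in SKLMS1 and 7.84 in RKN. KRT7 was 140.8 in SKUT1 and at most 6.05 elsewhere, and KRT19 was 145.5 in SKLMS1, 93.4 in SKUT1, 44.6 in RKN and 0.342 in SKN. EPCAM, the pan-epithelial marker, was at most 1.80 and CDH1, E-cadherin, at most 1.20. Of 12 epithelial markers 7 reached an FPKM of 1 in SKLMS1, 5 in SKUT1, 4 in RKN and 3 in SKN. Whether epithelial features bear on PAX8 was not tested.

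For each of the 6 genes, the genes nearest in level and pattern over the 4 libraries were found by Euclidean distance of log2(FPKM + 1). With 4 points, nothing is drawn from a match. PAX8 was nearest to GPR56, an adhesion receptor gene (155.3 in SKN, 70.5 in SKLMS1, 1.24 in RKN and 1.12 in SKUT1, distance 0.86), then C19orf33 and PMEPA1. WT1 was nearest to STK33 (distance 0.42), MYH14 and TLX3, and PAX3 to USH1C (3.71 in RKN and listed at 0 elsewhere, distance 0.0051), ZCCHC12 and PACSIN1. OXTR was nearest to DACT1, an inhibitor of WNT signalling (35.4 in SKUT1, 1.71, 0.836 and 0.432 in SKLMS1, SKN and RKN, distance 0.28), KCTD12 and FAM26E. Among the genes nearest to STC1 were C15orf52 and the clock gene ARNTL2 (distances 0.75 and 1.01). STC2 was nearest to COL4A1 and COL4A2, the main chains of basement membrane collagen (706.1 and 607.3 in SKUT1, distances 0.54 and 1.46), and to ALCAM.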

How the data were processed

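Poly(A) RNA of the 4 lines was sequenced by the submitters from TruSeq Stranded mRNA libraries on an Illumina NextSeq, per the labels' protocols. STAR, Cufflinks and hg19 are named in the submitters' processing notes. For versions, annotation, strand setting and filters, nothing was found in the labels or headers. The authors made and deposited 1 FPKM value per gene symbol and line.

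Of 23610 rows, 28 with a symbol turned into a date number and 5 with spreadsheet errors were left out. Depth was estimated from the value of 1 read in genes with a single transcript of GENCODE release 29, at an assumed fragment length of 200 bases. Of 275 to 317 low values per library, 63.7 to 65.1% lay within 0.1 of a whole read (20% by chance, although the unit was fitted to them). The estimate uses another annotation than the authors may have used, so read numbers are approximate.

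Genes with an FPKM of 1 in at least 1 line were compared as log2(FPKM + 1), between pairs of lines and, for 18 lists, between a line and the mean of the other 3. Members and lists were chosen with earlier results of these data known. Named are all members and PAX genes, the neighbours of PAX3, PAX8 and WT1, the 3 nearest genes per member, and up to 4 genes per list with the widest range among those reaching an FPKM of 5. Other genes named (such as SOX17, CDH16, MYOD1, GNAQ, GJA1, PAPPA, IGFBP4, ESR1, MSLN, FOLR1 and GREB1L) were picked for their known roles after the values were seen. All 9 members were found in RefSeq. Some genes that this rule names are not reported here. Code was tested on simulated data. Alternatives were other pseudocounts, scalings, filters and thresholds. Python 3.11.15, pandas 2.3.3 and numpy 2.4.6 were used.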

Additional observations from a re-analysis of the deposited data

How the results depend on the processing

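With 1 library per line, nothing here has a replicate error, and values of a few reads are limited by depth. The members at least 4-fold apart fell outside 1.5 times the reported count in these cases. With a pseudocount of 5 they numbered 2 for RKN and SKLMS1, 2 for RKN and SKUT1, and 1 for SKLMS1 and SKN. Under an 8-fold rule they numbered 2, 2 and 0 for these pairs and 3 for SKN and SKUT1, and OXTR alone of the 6 genes (1) was highest by that margin, against 4 by the 4-fold rule (PAX3, OXTR, STC1 and STC2). With a detection limit of FPKM 5, 0 members were detected in RKN. Over all lists, 194 differences of a gene in a line from the mean of the others reached 4-fold. This became 324 with a pseudocount of 0.1, 91 with 5 and 87 under the 8-fold rule. Rescaling to TPM moved the median difference of all genes from -0.04 to 0.24 in RKN and from -0.03 to -0.31 in SKUT1. The gap of PAX3 went from 2.24 to 3.22 with it, to 5.26 with a pseudocount of 0.1 and to 0.80 with 5, which ended its 4-fold call. Of 144 list counts, 62 moved by over 1.5 times under the 8-fold rule, 60 with a pseudocount of 0.1, 59 with 5, 23 with TPM, 6 with quantile normalization and 2 with median-of-ratios scaling. Of the 18 nearest genes, 15 remained after TPM rescaling and 11 with a pseudocount of 0.1. No paired analysis was possible because each line has 1 library and the labels carry no replicate numbers.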

Other observations

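Melanocyte markers, of another programme known to follow PAX3, were low in all 4 lines, with or without PAX3. Of 6 melanocyte markers, 5 were listed at 0 in RKN, 3 each in SKN and SKLMS1, and 2 in SKUT1. PMEL, at 1.34 in RKN, was the single marker to reach an FPKM of 1. MITF, the melanocyte master factor, was 13.1 in SKLMS1, 1.72 in SKUT1, 1.02 in SKN and 0.182 in RKN. TFAP2A, a neural crest factor, was 11.4 in SKLMS1, 6.48 in RKN, 2.06 in SKN and 1.51 in SKUT1, and SNAI2, which acts in crest migration and in mesenchymal cells, was 20.2 to 66.3 in all lines. TBX2 was 7.05 in SKUT1 and at most 0.657 elsewhere. HHEX, a homeobox factor of early thyroid and liver, was 10.8 in SKN and 8.01 in RKN, against 0.605 in SKUT1 and 0.0209 in SKLMS1, the same high lines as WT1.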
